A study of Mus musculus with 16 samples.

Results

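The genes described here are 33 genes of DNA replication and mitotic division, chosen by name and present as 1 row each among the 38087 genes of the count table. They were measured by total RNA sequencing in whole ovaries and whole testes of C57BL/6j mice aged 15 to 16 weeks, fed without restriction and sampled 2 to 4 hours into the light phase (zeitgeber time 2 to 4). The 4 groups were ovaries of conventionally raised females (CV, 4 libraries), ovaries of germ-free females (GF, raised without microbes, 5 libraries), testes of CV males (4 libraries) and testes of GF males (3 libraries). No label names a transgene, a drug, a batch or an ovarian cycle stage, and tissue and sex were one factor. Separate animals are not stated for the libraries within a group, so each p-value reflects sample-to-sample spread that may be technical.

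Before a cell copies its genome, the origin recognition complex (Orc1), Cdc6 and Cdt1 load the MCM helicase onto DNA, and geminin (Gmnn) blocks reloading. In S phase the helicase is activated with Cdc45 and the GINS complex (Gins2), the clamp Pcna tethers polymerases, and Rrm1, Rrm2 and Tyms supply deoxynucleotides. Cyclin E acts at the entry into S phase, and cyclins A and B with Cdk1 drive the passage into mitosis. There the kinases Plk1, Aurka and Aurkb, the checkpoint proteins Bub1 and Bub1b and the activator Cdc20 help to condense, attach and separate chromosomes. So do the proteins Top2a, Mki67, Cenpe, Cenpf and Kif11. In the ovary granulosa cells of growing follicles are the main dividing cells, whereas in the testis spermatogonia divide by mitosis and spermatocytes then enter meiosis, which uses many of the same proteins.

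Many of these genes are known targets of E2F factors or of complexes that bind CCAAT and CHR elements, so the 250 bases before the transcript start were read from RefSeq (GRCm38.p6) for the 27 of 33 members with an entry. Aurkb, Ccna2, Ccne2, Gins2, Gmnn and Mcm4 had none. The letters searched for E2F were TTCCCGC together with its variants TTGGCGC as well as TTCGCGC and finally TTGCCGC. For the CHR element they were TTTGAA and its variant TTCGAA, and CCAAT was searched as such, all on both strands. The E2F and CCAAT letters can overlap, as they do in Ccnb1. Windows of 5 members are shown with motif letters of either strand in capitals, 5′ to 3′ on the gene's strand: Mcm5 and Tyms, whose ovary groups did not overlap, Mki67, called in the testis, and Aurka and Ccnb2, among the highest in the testis against the ovary, where Tyms was the lowest.
Mcm5: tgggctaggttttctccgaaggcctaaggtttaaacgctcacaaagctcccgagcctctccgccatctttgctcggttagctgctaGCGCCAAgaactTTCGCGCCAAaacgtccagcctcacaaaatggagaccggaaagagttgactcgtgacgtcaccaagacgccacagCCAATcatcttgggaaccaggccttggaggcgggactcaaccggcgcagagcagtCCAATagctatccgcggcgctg
Tyms: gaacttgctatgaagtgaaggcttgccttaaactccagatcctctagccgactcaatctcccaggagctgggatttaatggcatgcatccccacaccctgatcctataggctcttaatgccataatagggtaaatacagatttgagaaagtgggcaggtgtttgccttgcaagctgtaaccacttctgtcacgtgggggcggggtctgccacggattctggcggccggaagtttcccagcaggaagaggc
Mki67: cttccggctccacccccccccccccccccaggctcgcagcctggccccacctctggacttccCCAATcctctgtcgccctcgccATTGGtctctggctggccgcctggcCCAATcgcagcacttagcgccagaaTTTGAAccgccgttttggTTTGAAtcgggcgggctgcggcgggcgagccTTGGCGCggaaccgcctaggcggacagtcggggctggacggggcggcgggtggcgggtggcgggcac
Aurka: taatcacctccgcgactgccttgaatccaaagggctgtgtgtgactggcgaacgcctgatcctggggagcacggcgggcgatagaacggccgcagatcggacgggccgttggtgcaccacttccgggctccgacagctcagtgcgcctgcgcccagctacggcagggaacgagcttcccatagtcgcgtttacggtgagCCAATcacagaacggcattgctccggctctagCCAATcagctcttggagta
Ccnb2: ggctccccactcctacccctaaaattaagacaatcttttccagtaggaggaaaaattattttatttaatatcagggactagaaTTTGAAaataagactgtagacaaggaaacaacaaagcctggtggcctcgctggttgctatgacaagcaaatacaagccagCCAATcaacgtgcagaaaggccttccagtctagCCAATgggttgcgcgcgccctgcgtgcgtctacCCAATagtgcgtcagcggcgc
The windows are chr8:75109259-75109508 (plus strand) for Mcm5 and, on the minus strand, chr5:30073626-30073875 for Tyms, chr7:135716380-135716629 for Mki67, chr2:172370571-172370820 for Aurka and chr9:70421555-70421804 for Ccnb2.

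The Mcm5 window held 3 E2F and 2 CCAAT matches, and the Mki67 window 1 E2F, 3 CCAAT and 2 CHR matches. In Mcm5, 2 of the E2F matches, starting 152 and 149 bases before the start, overlap on opposite strands and form 1 capital stretch. Ccnb2 had 3 CCAAT matches, starting 87, 54 and 21 bases before the start, and 1 CHR match. Aurka had 2 CCAAT matches, and Tyms had no match to any of the 3 motifs in these bases. Over the members, CCAAT was found in 22 of 27, against 33.8% of all 32851 promoters of the same length. The E2F letters were found in 9 of 27 (7.89% of all) and the CHR letters in 10 of 27 (17.1% of all). All 10 members with a CHR match also had CCAAT. By role, E2F letters were in 4 of 7 licensing genes (Cdc6, Mcm5, Mcm7 and Orc1) and in 0 of 6 mitotic kinase, checkpoint and activator genes, and CCAAT was in 5 of 5 chromosome and motor genes. A match describes letters in a window and is not a measured binding site.

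Ovary libraries held 12912251 to 15907297 counts and testis libraries 25880591 to 28266867. Levels are CPM, counts relative to library sizes scaled by TMM, edgeR's composition scaling, over all 16 libraries. The biological coefficient of variation, the spread between libraries beyond counting error, was 18.5% among ovary libraries and 4.17% among testis libraries. The tissue labels matched their markers: the summed level of 9 spermatid genes was 20114 to 22678 CPM in the testis libraries and at most 2.2 CPM in the ovaries, while 12 granulosa genes summed to 1660 to 3090 CPM in the ovaries and 140 to 150 CPM in the testes.

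In the GF ovary 32 of the 33 genes had a higher fitted level than in the CV ovary, with a median log2 fold change of 0.17 and a range of -0.04 to 0.36, but none was called at an adjusted p under 0.05. Over all 18095 genes tested 0.177% were called, 51.7% had a positive value and the median was 0.0060. By edgeR's quasi-likelihood test with Benjamini-Hochberg adjustment 0 of 33 were called, and 5 had an unadjusted p under 0.05, all higher (6.48% of all genes in either direction, 2.93% higher). DESeq2 also called 0, with 5 unadjusted (share of all genes not computed). The 33 genes share cells and libraries, so their common sign does not count as 33 observations. In whole organs, a change in the number of dividing cells and a change in RNA per cell cannot be told apart.

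Among the licensing genes Mcm5, a helicase subunit, had the smallest p. Its level was 23.3, 22.1, 24.3 and 27.2 CPM in CV ovaries 1 to 4 and 31.1, 27.2, 27.4, 35.7 and 34.2 CPM in GF ovaries 1 to 5. The groups did not overlap, although the highest CV and the lowest GF library both round to 27.2 CPM. The means were 24.2 ± 2.17 and 31.1 ± 3.86 CPM (SD, n = 4 and 5), and the log2 fold change was 0.36 (SE 0.0999, edgeR adjusted p = 0.469, range over the alternatives 0.104 to 0.952). Mcm7, another subunit, stood at 52.3, 44.1, 52.0 and 53.3 CPM in CV and at 62.9, 56.7, 51.2, 67.1 and 69.7 CPM in GF. Its ovary groups overlapped through GF ovary 3, and its log2 fold change was 0.28 (SE 0.0965, edgeR adjusted p = 0.642). Cdt1, the loading factor, stood at 5.70, 5.40, 5.39 and 6.18 CPM in CV and at 6.18, 6.75, 6.03, 6.52 and 8.76 CPM in GF (log2 0.27, edgeR adjusted p = 0.785). Gmnn, the inhibitor of reloading, stood at 7.46, 5.45, 6.59 and 7.69 CPM and at 8.24, 8.98, 6.26, 7.51 and 7.79 CPM (log2 0.19), with overlapping groups. All 9 licensing genes had a positive value (median 0.19).

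Of the 6 fork and nucleotide genes all had a positive value (median 0.19). Tyms, the thymidylate synthase, stood at 17.9, 18.2, 16.2 and 17.2 CPM in CV and at 22.6, 19.1, 18.9, 19.5 and 20.8 CPM in GF. Tyms and Mcm5 were the 2 members whose ovary groups did not overlap (2.76% of all genes did not overlap in either direction, 1.33% higher). The Tyms log2 fold change was 0.22 (SE 0.0771, edgeR adjusted p = 0.661). Pcna stood at 45.2, 44.0, 42.2 and 47.0 CPM in CV and at 53.1, 48.4, 45.4, 53.2 and 51.3 CPM in GF, with only GF ovary 3 inside the CV range (log2 0.17, SE 0.0641, edgeR adjusted p = 0.693). Rrm2, the small subunit of ribonucleotide reductase, stood at 14.0, 13.2, 11.7 and 14.5 CPM and at 17.2, 14.4, 13.6, 16.4 and 19.0 CPM (log2 0.27, SE 0.112, edgeR adjusted p = 0.75). GF ovaries 2 and 3 lay inside its CV range.

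The cyclin genes and Cdk1 had a median of 0.08, and Ccne2, a cyclin E, was the 1 member below 0 (-0.04). Ccnb1, cyclin B1, stood at 26.5, 22.9, 34.4 and 27.2 CPM in CV and at 33.4, 23.4, 23.6, 32.97 and 27.9 CPM in GF. Its groups overlapped almost wholly (log2 0.03, edgeR adjusted p = 0.985). Cdk1 stood at 28.1, 24.3, 31.6 and 28.4 CPM and at 38.2, 25.4, 26.4, 36.5 and 33.2 CPM (log2 0.18, edgeR adjusted p = 0.864), with 3 GF ovaries above the CV range.

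All 7 kinase, checkpoint and activator genes (median 0.19) and all 5 chromosome and motor genes (median 0.17) had positive values. Cdc20, which activates the anaphase-promoting complex, stood at 17.5, 14.7, 20.8 and 17.7 CPM in CV and at 23.9, 18.3, 18.3, 25.3 and 21.1 CPM in GF (log2 0.27, SE 0.128, edgeR adjusted p = 0.781). Mki67, the Ki-67 protein of dividing cells, stood at 186, 177, 200 and 194 CPM in CV and at 245, 176, 162, 239 and 239 CPM in GF (log2 0.17, edgeR adjusted p = 0.873). Top2a, which untangles chromosomes, stood at 153, 127, 154 and 154 CPM and at 207, 143, 136, 199 and 203 CPM (log2 0.27, edgeR adjusted p = 0.794). The kinase gene Plk1 stood at 10.6, 8.94, 8.74 and 8.42 CPM and at 13.8, 8.69, 8.29, 13.8 and 12.9 CPM (log2 0.32, edgeR adjusted p = 0.81). For Mki67, Top2a and Plk1 GF ovaries 1, 4 and 5 were above every CV ovary and GF ovaries 2 and 3 were within or below the CV range.

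**Figure D1:**
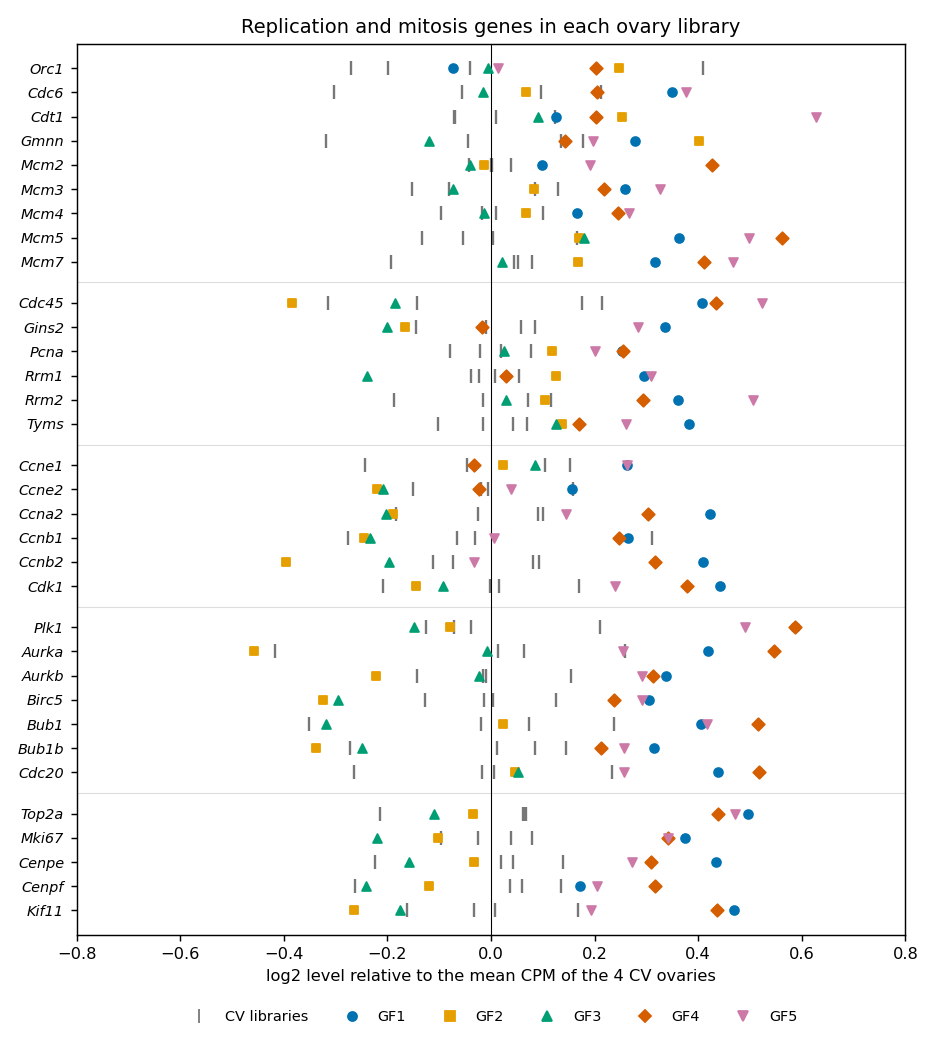
Level of each of the 33 genes in each ovary library, as log2 relative to the mean CPM of the 4 CV ovaries (x axis). Grey bars are CV libraries and coloured symbols the 5 GF libraries. GF1, GF4 and GF5 lie to the right of all CV libraries for 30, 25 and 28 genes, GF2 for 7 and GF3 for 2, and GF2 lies to their left for 11 and GF3 for 9.

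The GF ovaries were spread more widely than the CV ovaries. The coefficient of variation was larger in GF than in CV ovaries for 28 of 33 genes, with medians of 16.1% and 9.21%. Over all genes with enough counts, pairs of GF ovaries also tended to differ more. Their chi-square per degree of freedom was 17.7 to 34.3, against 6.01 to 24.0 for pairs of CV ovaries. The wider spread is thus not shown to be particular to the 33 genes. For the counts by library that follow, shares over all genes were not computed. GF ovary 1 lay above all 4 CV ovaries for 30 of 33 genes, GF ovary 5 for 28 and GF ovary 4 for 25, against 7 for GF ovary 2 and 2 for GF ovary 3. In the opposite direction GF ovary 2 lay below all 4 CV ovaries for 11 genes and GF ovary 3 for 9. The summed level of the 33 genes was 1115, 1001, 1165 and 1151 CPM in CV and 1414, 1070, 1013, 1392 and 1373 CPM in GF. CV ovary 2 was below the other 3 CV ovaries for 22 of 33 genes. Without it the median log2 fold change was 0.12, with 30 of 33 positive and 0 called. Without GF ovary 2 or 3 the median was 0.23 or 0.24, also with 0 called. Without GF ovary 1, 4 or 5 the median was 0.13, 0.14 or 0.13. Then 28, 30 or 32 of 33 genes were positive and 0 called. The 5 genes at an unadjusted p under 0.05 became 14 without GF ovary 3, 8 without GF ovary 2 and 3 without GF ovary 4. The shares of all genes in these refits were not computed.

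Cell type markers varied between the same libraries. Granulosa genes summed to 1882, 2260, 2450 and 2704 CPM in CV and to 2063, 1660, 2442, 3090 and 1764 CPM in GF. Luteal genes summed to 7495, 5507, 5876 and 6343 CPM in CV and to 9778, 6226, 6321, 6987 and 5545 CPM in GF. The summed theca level ran from 1649 to 2449 CPM in CV and from 1192 to 3423 CPM in GF, and the oocyte level from 133 to 232 and from 133 to 223 CPM. None of 12 granulosa, 7 theca, 7 luteal or 9 tested oocyte genes was called by edgeR, with medians of -0.11, 0.05, 0.13 and -0.23, and at an unadjusted p under 0.05 there was 1, a theca gene. Endothelial genes were positive in 6 of 6 (median 0.16, 2 higher at an unadjusted p under 0.05) and smooth muscle genes in 0 of 6 (median -0.22, 0 unadjusted), with 0 called by edgeR in either list. All genes of the granulosa, theca, luteal and oocyte lists had counts in both ovary groups. The part of cell composition in the ovary values was not tested.

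**Figure D2:**
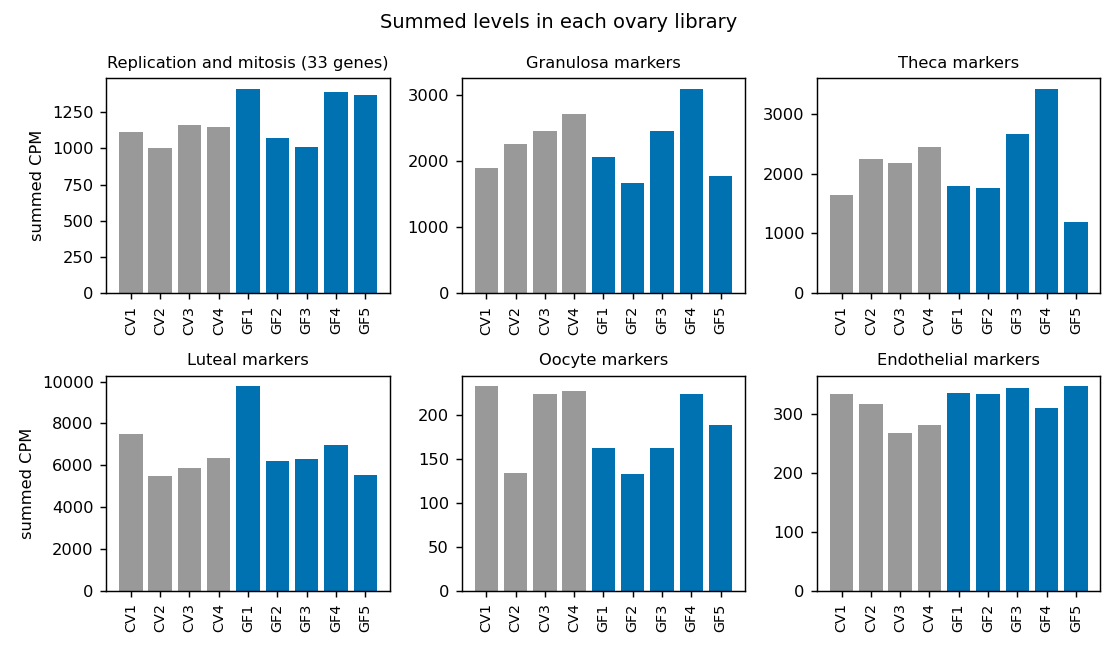
Summed CPM (y axis) in each of the 9 ovary libraries, CV in grey and GF in blue, for the 33 genes and for marker lists. The 33 genes are highest in GF1, GF4 and GF5 (1414, 1392 and 1373 CPM), which differ from each other in granulosa and luteal markers.

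In the GF testis 1 of the 33 genes was called, Mki67, against 8.08% of the 20269 genes tested (3.67% higher). Mki67 stood at 113, 110, 110 and 113 CPM in CV testes 1 to 4 and at 121, 120 and 117 CPM in GF testes 1 to 3, and the groups did not overlap. The means were 112 ± 1.87 and 119 ± 2.13 CPM (SD, n = 4 and 3), a log2 fold change of 0.11 (SE 0.0354, edgeR adjusted p = 0.0441). The call was lost in most alternatives: the adjusted p was 0.0825 by DESeq2, 0.0514 with DESeq2's size factors in edgeR and 0.0877 with no filter on low counts. Leaving out any 1 library other than CV testis 4 also ended it (0.0795 to 0.185).

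The other genes had values on both sides of 0: 19 of 33 were positive (51.2% of all genes), with a median of 0.03 and a range of -0.10 to 0.22. At an unadjusted p under 0.05 there were 5 genes, all higher (19.4% of all genes in either direction, 9.72% higher). Rrm1, the large subunit of ribonucleotide reductase, stood at 178, 168, 168 and 184 CPM in CV and at 182, 179 and 186 CPM in GF (log2 0.08, SE 0.0343, edgeR adjusted p = 0.167). Cenpf, a kinetochore protein, stood at 336, 336, 347 and 359 CPM and at 376, 348 and 350 CPM (log2 0.07, edgeR adjusted p = 0.172). Mcm4, a helicase subunit, stood at 15.9, 13.1, 14.1 and 14.0 CPM and at 14.2, 16.1 and 17.8 CPM (log2 0.19, edgeR adjusted p = 0.193). Each of these 3 genes overlapped between groups.

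Aurkb, a kinase of the chromosomal passenger complex, stood at 18.7, 16.2, 19.4 and 20.2 CPM in CV testes and at 20.7, 20.4 and 20.7 CPM in GF testes (log2 0.16, SE 0.0735, edgeR adjusted p = 0.198). On the printed scale Aurkb and Mki67 were higher without overlap, and Gmnn, Mcm7 and Cdk1 were lower without overlap (17.4% of all genes did not overlap, 6.8% higher and 10.6% lower). Scaled over the testis libraries alone, as in the test, Ccna2 and Top2a were also higher without overlap and Mcm7 overlapped. On that scale 8.66% of all genes were higher and 8.48% lower without overlap. Gmnn stood at 32.1, 32.8, 34.0 and 32.0 CPM in CV and at 29.1, 30.6 and 30.8 CPM in GF, a log2 value of -0.10 that was not called (edgeR adjusted p = 0.377). Cdk1 stood at 58.4, 54.3, 55.6 and 55.97 CPM and at 52.9, 52.4 and 53.2 CPM (log2 -0.07, edgeR adjusted p = 0.486).

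None of the remaining genes followed by library was called. Top2a stood at 450, 439, 442 and 460 CPM in CV testes and at 458, 461 and 457 CPM in GF testes (log2 0.05, edgeR adjusted p = 0.296). Pcna stood at 129, 123, 120 and 120 CPM and at 123, 117 and 121 CPM (log2 -0.01). Ccnb1 stood at 97.9, 97.9, 96.3 and 93.8 CPM and at 94.9, 92.0 and 94.8 CPM (log2 -0.02). All 3 genes overlapped between groups. Mcm5 (29.1, 24.97, 28.1 and 28.1 against 29.4, 30.5 and 27.9 CPM, log2 0.10) and Cdt1 (4.13, 3.45, 3.66 and 3.27 against 4.27, 4.23 and 4.02 CPM, log2 0.22) overlapped too, and the Cdt1 value, the highest of the 33, had an SE of 0.149. Rrm2 stood at 18.8, 18.6, 21.3 and 19.2 CPM and at 18.2, 18.7 and 17.7 CPM (log2 -0.08). Mcm7 stood at 217, 227, 220 and 225 CPM and at 212, 207 and 217 CPM (log2 -0.05), with the highest GF library just under the lowest CV library. Plk1 stood at 87.1, 86.6, 86.8 and 91.0 CPM and at 85.8, 81.0 and 89.0 CPM (log2 -0.03).

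**Figure D3:**
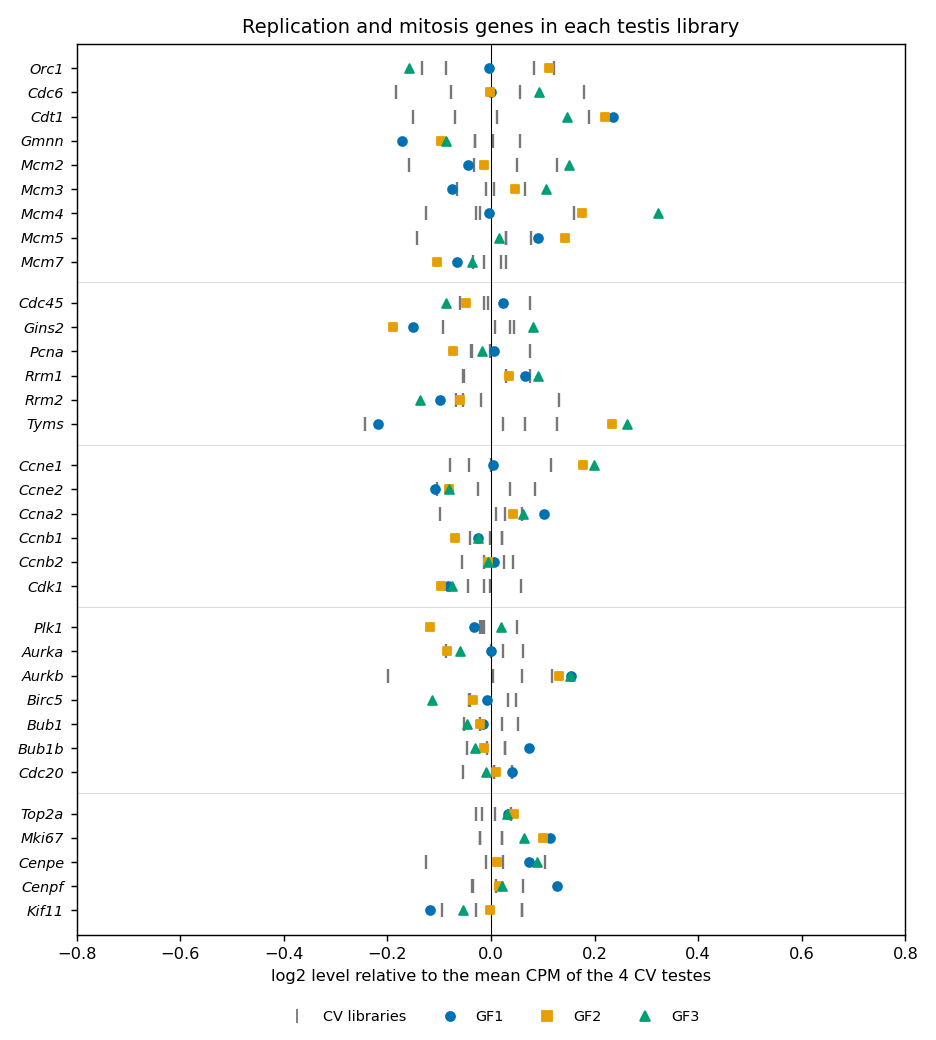
Level of each of the 33 genes in each testis library, as log2 relative to the mean CPM of the 4 CV testes (x axis, same span as the ovary plot). Grey bars are CV and coloured symbols the 3 GF libraries. Fitted values run from -0.10 to 0.22.

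Some germ cell markers differed between the same testis libraries, where 8.08% of all genes were called. Of 11 spermatogonial genes 1 was called higher by edgeR (Uchl1, log2 0.19), 3 were higher at an unadjusted p under 0.05, and 8 were positive (median 0.16). The summed level of 8 spermatocyte genes was 1543 to 1604 CPM in CV and 1642 to 1687 CPM in GF testes, and 2 of the 8 were called higher by edgeR (Piwil1, log2 0.26, and Spo11, 0.14). The summed level of 9 spermatid genes was 21234 to 22678 CPM in CV and 20114 to 21630 CPM in GF, and 3 of 9 were called lower (Acrv1, Odf1 and Spaca1). Of 6 endothelial genes 1 was called higher (Egfl7, log2 0.43), but 4 of the 6 were negative (median -0.07). At an unadjusted p under 0.05, 2 endothelial genes were higher and 1 lower by edgeR. Of 6 smooth muscle genes 1 was called lower (Acta2, -0.16), and 5 of the 6 were negative (median -0.14). None of 8 Sertoli, 7 Leydig or 6 tested leukocyte genes was called by edgeR. Their medians were -0.06, -0.01 and -0.15, with 6, 4 and 5 genes negative. No gene of the spermatogonial, spermatocyte and spermatid lists was at 0 in a testis group. The part of cell composition in the Mki67 value was not tested.

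The difference between the GF effects of the gonads, tested over all 16 libraries, was called for 0 of 33 genes (0.132% of all 21977 genes), with 3 at an unadjusted p under 0.05, all lower in the testis (6.93% of all genes in either direction, 4.01% lower). That count was 10 without GF ovary 3 and 8 without GF ovary 2. DESeq2 also called 0, with 4 unadjusted. For these alternatives the share of all genes at an unadjusted p under 0.05 was not computed. The fitted difference was negative for 31 of 33 genes, with a median of -0.13 against -0.019 over all genes, of which 46.4% had a positive value. Mcm7 had the smallest p (-0.35, SE 0.115, edgeR adjusted p = 0.457), followed by Rrm2 (-0.37, SE 0.142, edgeR adjusted p = 0.607) and Pcna (-0.20, SE 0.0796, edgeR adjusted p = 0.619). Mcm5 (-0.28), Gmnn (-0.31) and Plk1 (-0.37) came next, with edgeR adjusted p of 0.721, 0.733 and 0.748. The ovary values were therefore not shown to differ from those of the testis.

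Between the gonads most of the genes differed. In CV animals 26 of 33 genes were higher and 7 lower in the testis (edgeR adjusted p under 0.05; 91.2% of all 21231 genes were called, 47.4% higher and 43.8% lower). In GF animals 24 were higher, 7 lower and 2 not called (89.2% of all 21221 genes, 45.7% higher and 43.4% lower). The same 24 genes were higher and the same 7 lower in both, leaving Mcm5 and Rrm2. These directions hold under TMM: without composition scaling the median of all genes moved by -0.80 in CV and -0.79 in GF, and the members called were 23 higher and 9 lower in CV and 20 higher and 9 lower in GF. Of all calls, 52.0% were higher in CV testes with TMM and 39.5% without.

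The kinase, checkpoint and activator genes had the highest median of the 5 roles in the testis, with 7 of 7 called higher in CV under TMM and a median of 3.11, though Aurkb was at -0.12 on total counts. Aurka, a spindle pole kinase, stood at 10.4, 7.73, 12.3 and 10.8 CPM in CV ovaries and at 211, 215, 199 and 221 CPM in CV testes, a log2 fold change of 4.36 (SE 0.11, edgeR adjusted p = 3.55e-12). Cdc20 stood at 191, 191, 183 and 195 CPM in CV testes, with means of 190 ± 5.07 CPM there and 17.7 ± 2.48 CPM in CV ovaries (SD, n = 4 and 4; log2 3.42, SE 0.0837, edgeR adjusted p = 2.07e-13). Plk1 (3.25) and Bub1 (3.11) followed. In GF animals Aurka was at 4.11 and Cdc20 at 3.17.

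Cyclins and licensing genes did not move as blocks. Ccnb2, cyclin B2, stood at 18.9, 18.4, 21.1 and 21.0 CPM in CV ovaries and at 209, 223, 215 and 221 CPM in CV testes (log2 3.45, SE 0.0602, edgeR adjusted p = 6.52e-15). Ccna2, the somatic cyclin A, went the other way, with 42.4, 38.0, 45.9 and 46.3 CPM in CV ovaries and 13.2, 12.2, 13.7 and 13.4 CPM in CV testes (log2 -1.72, SE 0.0808, edgeR adjusted p = 1.71e-10). Tyms had the lowest value, with 17.9, 18.2, 16.2 and 17.2 CPM in CV ovaries and 3.02, 2.93, 3.15 and 2.44 CPM in CV testes (log2 -2.59, SE 0.111, edgeR adjusted p = 6.39e-11). Mcm2, a helicase subunit, stood at 37.4, 38.4, 36.3 and 37.4 CPM in CV ovaries and at 15.3, 12.6, 13.7 and 14.5 CPM in CV testes (log2 -1.42). For Ccnb2, Ccna2, Tyms and Mcm2 the gonads did not overlap, as for 32 of the 33 genes in CV (89.2% of all genes). Mki67 was lower in the testis (-0.76 in CV, -0.83 in GF) while Top2a was higher (1.60 and 1.37). Mcm5 was at 0.19 in CV (edgeR adjusted p = 0.046), with -0.62 on total counts, and at -0.09 in GF (edgeR adjusted p = 0.42), where it was at 0.070 with DESeq2's size factors and at -0.88 and called on total counts (edgeR adjusted p = 1.29e-05). The CV call of Mcm5 ended in the joint fit (edgeR adjusted p = 0.0633) and without CV ovary 1, 2 or 3 or CV testis 1 (0.0609 to 0.107, range over all alternatives 8.65e-06 to 0.107), and on total counts it was called in the opposite direction (-0.62).

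**Figure D4:**
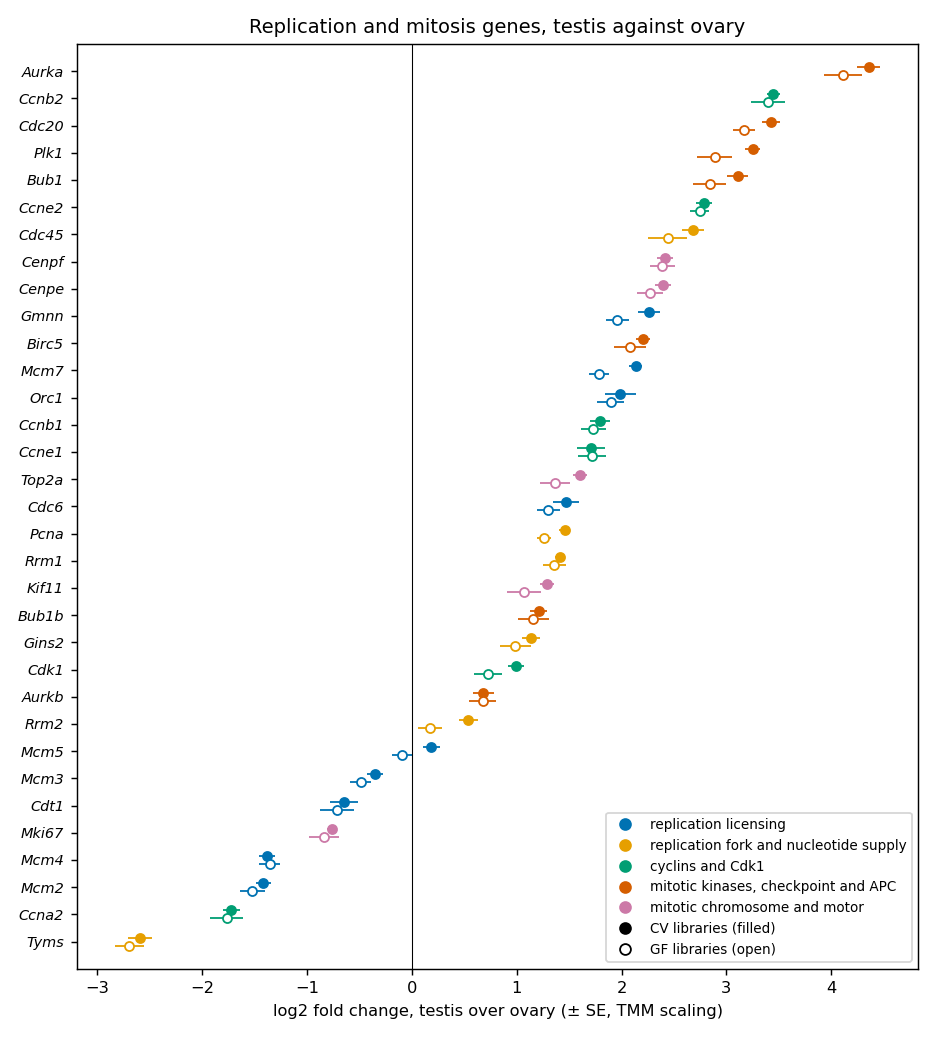
Log2 fold change of testis over ovary (x axis, ± SE, TMM scaling) for each of the 33 genes, filled for CV and open for GF libraries and coloured by role. Values run from -2.59 (Tyms) to 4.36 (Aurka) in CV, and from -2.69 (Tyms) to 4.11 (Aurka) in GF.

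The MCM subunits assemble into 1 helicase with equal copies, and their RNA levels per length were far from equal in the testis. Per kb of exon (GENCODE M21), Mcm2, Mcm3, Mcm4, Mcm5 and Mcm7 stood at 5.38, 9.41, 10.3, 6.06 and 11.4 CPM per kb in CV ovaries and at 2.02, 7.39, 3.98, 6.91 and 50.2 CPM per kb in CV testes. The length is the union of the exons of all annotated transcripts, 6956 bases for Mcm2 and 4426 for Mcm7. It can exceed the transcripts present, and ratios between genes depend on it. Without length scaling Mcm2 and Mcm7 stood at 37.4 and 50.5 CPM in CV ovaries and at 14.0 and 222 CPM in CV testes. The ratio of Mcm7 to Mcm2 was 2.12 ± 0.214 in CV ovaries, 2.35 ± 0.192 in GF ovaries, 25.05 ± 2.53 in CV testes and 23.3 ± 1.32 in GF testes (SD, n = 4, 5, 4 and 3). The union of annotated Mcm7 exons shares bases with the miRNA genes Mir25 and Mir93. It also overlaps Cops6 and Ap4m1 on the opposite strand, and the larger of these overlaps covers 7.25% of its bases. Whether counting used strand is not given in the sources used here, so a part of such reads may belong to the neighbours.

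**Figure D5:**
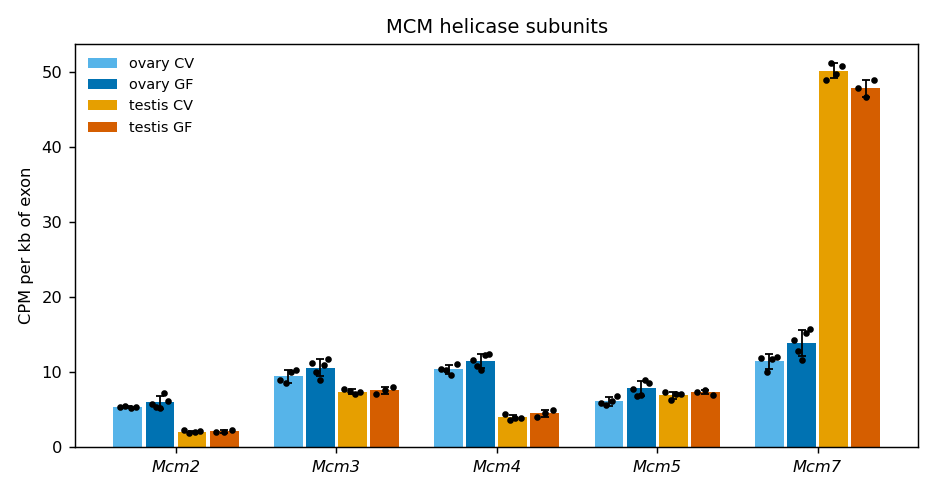
CPM per kb of exon (y axis) of 5 MCM subunit genes in the 4 groups, as the mean with SD (bars and error bars) and single libraries (points). Mcm7 reaches 50.2 CPM per kb in CV testes, where Mcm2 is at 2.02.

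On the same per-length scale the order of the genes differed between the gonads. Orders and ratios within a gonad depend on the exon unions used, such as 6089 bases for Tyms and 1531 for Ccnb2. In CV ovaries Mki67 (18.8 CPM per kb), Pcna (18.6) and Top2a (16.3) led, with Mki67 and Pcna closer than their SDs of 0.994 and 0.848, and Orc1 (1.01) and Ccne1 (0.999) came last. In CV testes Ccnb2 (142), Cdc20 (102) and Aurka (83.5) led, and Cdt1 (1.16) and Tyms (0.474) came last. The ratio of Ccnb2 to Ccna2 was 1.23 ± 0.0436 in CV ovaries and 44.2 ± 3.09 in CV testes, and that of Rrm2 to Tyms was 1.69 ± 0.123 and 14.9 ± 1.67 (SD, n = 4 and 4). Of the Ccna2 exon bases 12.5% lie opposite Exosc9, which stood at 42.2 CPM in CV testes against 13.1 CPM for Ccna2. The same holds for 17.4% of the Ccne2 bases (opposite Ints8) and 10.8% of those of Orc1 (opposite Gm12743). Values of Gins2 are uncertain, since 67.3% of its exon bases lie opposite Gse1 exons, and Pcna, Tyms, Ccnb1 and Ccnb2 have annotated pseudogenes that could share reads.

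Other genes of the pathway were followed in lists of 42 replication genes, 42 mitosis genes and 28 cell cycle regulators. The regulators were mostly of the G1 to S transition (the G1 to S list). A further list held 8 genes, among them germline relatives of members. In the GF ovary, where 0.177% of all genes were called, none was called by edgeR. At an unadjusted p under 0.05 there were 10 (6.48% of all genes). Of these, 4 replication, 1 mitosis and 2 G1 to S genes were higher. The rest, 2 replication genes and 1 G1 to S gene, were lower. Of the replication list 33 of 42 were positive (median 0.11), and of the mitosis list 38 of 42 (median 0.11), against 51.7% of all genes. Of the G1 to S list 18 of 27 tested were positive (median 0.05). Of the list with germline relatives 3 of 6 tested were positive (median -0.03). In the GF testis, where 8.08% of all genes were called, 1 of 42 replication genes was called, the helicase subunit Mcm6. It went from 37.2 ± 2.05 to 51.4 ± 4.2 CPM (SD, n = 4 and 3), with a log2 fold change of 0.48 (SE 0.0573, edgeR adjusted p = 9.89e-08). Mcm6 was left out of the 33 because it is grouped with its neighbours on chromosome 1, which are not described here. None of Mcm2, Mcm3, Mcm4, Mcm5 and Mcm7 was called in the GF testis. Of the mitosis list 3 were called higher (Ttk, Ube2c and Hmmr) and 1 lower (Fzr1), and of the G1 to S list 2 higher (Cdkn1c, log2 0.41, and Skp2, 0.17) and 1 lower (E2f5, -0.20).

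Between the gonads in CV animals, where 91.2% of all genes were called, 30 of the 42 other replication genes were higher in the testis and 8 lower under TMM, and of the 42 mitosis genes 37 were higher and 5 lower. All 8 genes of the list with germline relatives were higher. Among them was Ccna1, the germline cyclin A, at 0.19 CPM in CV ovaries and 201 ± 5.54 CPM in CV testes (log2 9.97). Of the G1 to S list 15 were higher and 10 lower, with Foxm1, a transcription factor of mitotic genes, at 3.83 and Ccnd2, a cyclin D of granulosa cells, at -4.56.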

How the data were processed

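The authors deposited raw whole-number counts for each gene in 1 table of 16 libraries. Per the submitters' processing notes, STAR 2.4.0i and mm10 were used; of the counter, annotation and strand setting nothing is given in the sources used here. Per the labels' protocols, 250 ng of total RNA went through a stranded kit with ribosomal RNA depletion, 12 PCR cycles and paired 100 nt reads.

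Counts were tested with edgeR 4.0.16 (R 4.3.3): TMM, the edgeR expression filter, robust quasi-likelihood F tests, Benjamini-Hochberg adjustment over all genes tested, and a call at an adjusted p under 0.05. All 33 members passed the filter in every comparison. DESeq2 1.42.0, other scalings, no filter, a joint fit, a replicate block and leaving out each library were the alternatives. Group ranges were first compared on the scale of each test, and after their values were seen on the scale of the printed CPM; both are given. No replicate pair agreed within sampling noise (chi-square per degree of freedom 2.37 to 34.3). Same-numbered ovary libraries deviated together (correlations 0.213 to 0.407), which met the rule used for pairing, a correlation above 0.1 in every pair. CV ovaries 2 and 3 nevertheless correlated most with a GF ovary of another number, so pairing by number is not shown. The main ovary test leaves the numbers out, and the replicate block includes them. Same-numbered testis libraries did not meet the rule (-0.02 to 0.06).

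The members, lists, tests and rules were chosen with earlier results of these data known. Values by library are given for called members, for the smallest unadjusted p in each GF comparison up to 6, for 8 members set by name (Mcm5, Cdt1, Pcna, Rrm2, Ccnb1, Cdk1, Mki67 and Top2a), and for the 3 highest and 3 lowest between gonads. Other pathway genes are named only where called, up to 4 per list. On simulated counts the ovary test recovered 68.8% of genes changed by 1 on the log2 scale, and the testis test 87%. Only changes of 1 and 2 were simulated. The fitted GF values of the members were much smaller, so these shares do not say how often changes of that size would be called.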

Additional observations from a re-analysis of the deposited data

Results flagged for a closer look

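In groups of 4 or 5 libraries the lowest or highest library was compared with the rest by Dixon's 95% criterion, which chance passes in about 1 of 20 groups. Of 99 gene and group combinations 4 passed. Cdt1 stood at 8.76 CPM in GF ovary 5 against 6.03 to 6.75 CPM in the other GF ovaries. Mcm7 was at 44.1 CPM and Top2a at 127 CPM in CV ovary 2, against 52.0 to 53.3 and 153 to 154 CPM in the other CV ovaries. Plk1 was at 91.0 CPM in CV testis 4 against 86.6 to 87.1 CPM. The 3 GF testes were too few to examine.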

How the results depend on the processing

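No alternative called a member in the ovary or in the difference between gonads. Over all genes the ovary calls rose from 32 to 95 by DESeq2, 93 in the joint fit and 91 with the replicate block, which leaves out the unpaired GF5 and gave 29 of 33 members positive (median 0.13; also 0.13, with 32 positive and 33 genes called, without GF5 and no block). In the testis the members called fell from 1 to 0 with DESeq2's size factors, DESeq2, no filter or the joint fit, and ran from 0 to 4 with 1 library left out (4 without CV4: Rrm1, Mki67, Cenpe and Cenpf). With the replicate block, which also leaves out the unpaired CV4, the 1 testis call was Cenpe, and Mki67 had an edgeR adjusted p of 0.0614. All-gene testis calls were 122 in the joint fit against 1638, and 996 to 2084 with 1 library left out; those for the difference between gonads were 127 by DESeq2 against 29, and 13 to 37. With ranges on the test's own scaling or on total counts, chosen after seeing the data, 4 members in place of 2 were higher without overlap in the testis, and 2 in place of 3 lower. Over all genes 8.66% were higher and 8.48% lower on the test's scaling, and 9.09% and 7.95% on total counts. On the printed scale these shares were 6.8% and 10.6%. On total counts the gonad difference reversed for Mcm5 (-0.62), Rrm2 (-0.27) and Aurkb (-0.12) in CV and for Rrm2 (-0.62), Cdk1 (-0.064) and Aurkb (-0.12) in GF. Mcm5 in GF reversed to 0.070 with DESeq2 or its size factors and to 0.014 with the replicate block, which leaves out GF ovaries 4 and 5; on total counts it was called lower (-0.88). With 1 library left out, signs turned for ovary Ccnb1 (-0.056 to 0.15) and Ccne2 (-0.098 to 0.013), testis Pcna (-0.027 to 0.012), and the gonad difference in effect for Ccnb1 (-0.19 to 0.014) and Cdt1 (-0.12 to 0.032). The cause of these changes was not tested.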
